A study of Mus musculus with 22 samples.

Results

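The sites described here are weak polyadenylation sites that lie some distance downstream of a strong one. Reads were pooled over 20 libraries, a position with at least 2000 pooled reads was taken as a strong site, and a position with 30 to 500 pooled reads as a minor site. A minor site was included when the nearest strong site before it on the same strand was 5000 to 20000 nt away and no strong site followed within 20000 nt. Of 611058 nuclear positions with a read, 31158 were minor sites and 900 of these met the rule; they are called downstream ends below. They lay behind 586 of the 4779 strong sites. The sites were chosen by their pooled read counts and positions, so their pooled depth and distance are a description only. No difference between groups was used in the choice.

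The study measured how 3′ ends are chosen in mouse cells treated with siRNA against Pcf11 or carrying a genotype labelled Pcf11-IPAKO. The libraries come from 3′READS, which pulls down the tail end of polyadenylated RNA and maps its last genomic base, so that reads at a position count RNA that ends there. There were 10 groups of 2 libraries. C2C12 myoblasts were either labelled untreated or treated with siRNA against Pcf11 (siPcf11), and from each of these total RNA, which the titles call input, and newly made RNA were sequenced. The newly made RNA carries 4-thiouridine (4sU) added at 50 µM for 1 h before harvest. NIH3T3 fibroblasts were untreated or siPcf11-treated. 4T1 mammary carcinoma cells were untreated or carried the genotype labelled Pcf11-IPAKO. A last pair of C2C12 groups, titled proliferating and differentiated, carried no Pcf11 treatment. The labels name no control siRNA for any untreated group, give the strain C57BL/6 for every library whatever the cell line, and say nothing of separate cultures or clones, so the spread between the libraries of a group may be technical.

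PCF11 is a subunit of the machinery that cleaves the nascent transcript at a poly(A) signal. It also binds the tail of RNA polymerase II and helps the polymerase leave the template after cleavage. When a poly(A) signal is passed by, or the polymerase is slow to stop, RNA continues into the sequence beyond the gene and can be cleaved and polyadenylated there. A weak end far behind a strong one is therefore a stand-in for such readthrough, and no more than that. Whether a given downstream end lies on the transcript of the strong site before it was not tested. Positions are in the mm9 mouse assembly. Sequences, gene names and exon or intron membership of the sites, and reads at the Pcf11 gene itself, are not analysed here.

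Libraries held 1887532 to 4432717 reads, of which 0.862 to 8.15% were mitochondrial and left out. Values are counts scaled to a fixed number of nuclear reads per library (CPM). Downstream ends took 3149 to 9609 reads per library and between 403 and 658 of the 900 had a read, so a single end with 3 reads corresponds to 0.709 to 1.65 CPM. The 4T1 libraries stood apart: 7.37 and 7.85% of the reads of the Pcf11-IPAKO libraries fell on positions with under 30 pooled reads, against 2.23 and 2.82% in the 4T1 controls and 1.79 to 2.91% in all libraries other than the Pcf11-IPAKO pair. Replicates agreed less well in 4T1 and in siPcf11-treated NIH3T3 cells, where the chi-square of replicate counts over all sites was 8.46 to 12.7 per degree of freedom, against 1.81 to 2.67 in the other groups.

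Downstream ends were weak. A downstream end had a median of 76 pooled reads and lay a median of 11222 nt behind its strong site. Together they held 111169 of 57041341 nuclear reads, or 0.195%, and 2.86% of the reads at minor sites. As a share of the pooled reads of the end and its strong site, the median was 1.58%, with 288 ends under 1% and 143 at 5% or more. The ends thinned out with distance from 247 in the 2500 nt after the lower limit to 112 in the 2500 nt from 15000 nt on, with 147 in the last 2500 nt. Minor sites of any kind were far denser close to a strong site: the first 500 nt held 2470 minor sites per 1000 nt, summed over strong sites, against 98.8 at 5000 to 7500 nt.

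Most strong sites with a downstream end had a single one. There were 417 such strong sites, 100 had 2 ends and 69 had 3 or more, and 15 strong sites with 5 or more held 103 ends between them. The longest set, 15 ends, lay 5467 to 19399 nt behind position 87256963 of chromosome 11 (plus strand). The next held 11 ends, all packed 5000 to 5767 nt behind position 39979985 of chromosome 17 (plus strand), and a set of 9 followed position 89810139 of chromosome 3 (minus strand). Ends of 1 set lie behind the same strong site and cannot be taken as independent. Whether they share a source was not tested.

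The ends were split evenly between strands, 450 on each. A strong site on the opposite strand within 1000 nt was found at 33 (3.67%), against 1.75% of the other minor sites. Another listed position within the 1000 nt before the end was found at 644 (71.6%), against 74.1% of the other minor sites. Within the same windows, 18920 positions had 1 to 9 pooled reads, 1165 had 10 to 29 and 185 had more than 500 but under the strong-site minimum, so the 900 ends are a middle band of what was read there.

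Many ends belonged to 1 cell line. While 483 had a read in all 3 lines, 160 had over 80% of their mean CPM in C2C12, 122 in NIH3T3 and 83 in 4T1. Reads in all 20 libraries were found at 65 ends and in 5 or fewer at 120, and 53 ends took most of their reads from a single library. The limits of the rule fell inside a continuous range. The weakest ends included had 30 reads and the strongest left out below them 29, with 22 positions at each value. At the upper limit the values were 496 and 502 reads, and at the distance limits 5000 against 4970 nt and 19986 against 20015 nt. The shortest clear stretch accepted was 20241 nt and the longest refused 18953 nt. For strong sites, 3 positions had exactly 2000 reads and the next had 1999.

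The main contrast asks how RNA ending behind strong sites differs when cells are treated with siRNA against Pcf11 or carry the Pcf11-IPAKO genotype. Ends 5000 to 10000 nt behind the strong site (391 near ends) were summed apart from those beyond 10000 nt (509 far ends). In C2C12 total RNA, near ends summed to 666 and 655 CPM in the controls and 906 and 931 CPM after siPcf11. Far ends summed to 1046 and 1015 CPM in the controls and 854 and 921 CPM after siPcf11. The groups did not overlap in either class: near ends were higher by 0.48 on the log2 scale, and far ends lower, with a log2 ratio of -0.22. The far-end value was -0.10 without the crowded sets described below, and 0.16, with siPcf11 libraries above controls, at far ends with no other listed position in the 1000 nt before them. An exact permutation test of 2 libraries against 2 cannot go below p = 0.333 (two-sided), and both gave that value. In bulk RNA, fewer cells making a transcript and less of it per cell cannot be told apart.

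The same split was seen in newly made RNA. Near ends held 886 and 819.9 CPM in the 4sU controls and 982 and 1018 CPM after siPcf11. Far ends held 1235 and 1195 CPM in the controls and 1011 and 991 CPM after siPcf11. The log2 ratios were 0.23 and -0.28, again with no overlap and exact permutation p = 0.333. The size of the far-end difference depended on how the libraries were scaled. With scaling by trimmed mean of M-values (TMM), an edgeR method that sets the bulk of sites to no change, near ends stood at 0.66 in total RNA and 0.44 in 4sU RNA. Far ends then stood at -0.04 in total RNA, with overlapping groups, and -0.07 in 4sU RNA. The far-end difference is thus relative to the library totals.

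The ratio of near to far reads within a library does not depend on the scaling. It was 0.637 and 0.646 in the C2C12 total RNA controls and 1.06 and 1.01 after siPcf11. In 4sU RNA it went from 0.717 and 0.686 to 0.972 and 1.03. In NIH3T3 cells it was 0.557 and 0.561 in controls and 0.705 and 0.707 after siPcf11. 4T1 controls gave 0.606 and 0.673 and Pcf11-IPAKO cells 0.893 and 0.859. Every siPcf11 or Pcf11-IPAKO library lay above both of its controls, in 4 comparisons of 4, each with the smallest exact permutation p of 0.333. Differentiated C2C12 cells gave 0.628 and 0.599 against 0.578 and 0.581 when proliferating, a log2 difference of 0.08 set beside 0.34 to 0.69 in the Pcf11 comparisons. In 4T1 the sums include the chromosome 11 set described below, which met the rule through the Pcf11-IPAKO libraries. The 4T1 ratios thus follow in part from the choice. Without strong sites with 5 or more ends they were 0.604 and 0.734 in controls and 0.769 and 0.758 in Pcf11-IPAKO cells.

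**Figure D1:**
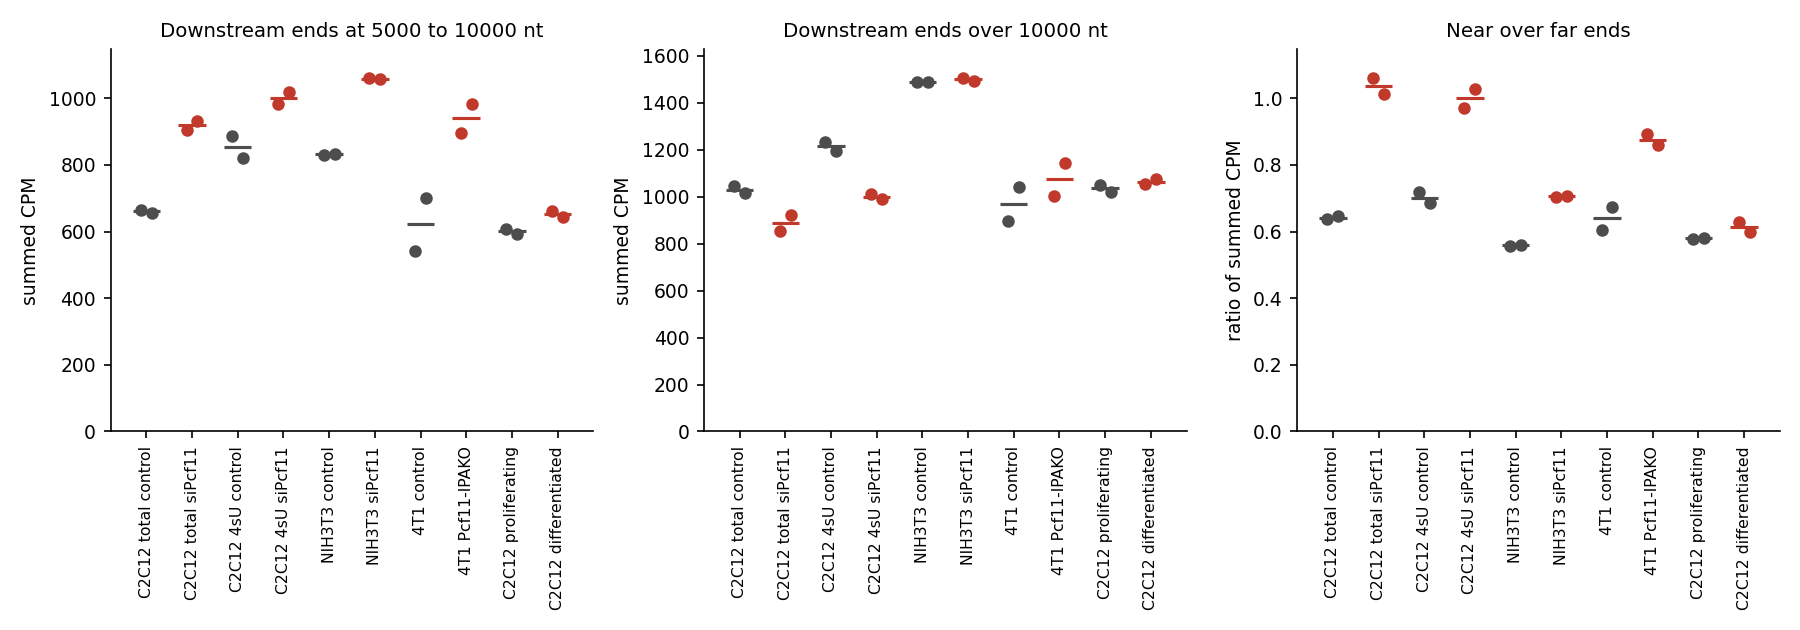
Summed CPM of the 391 near and 509 far downstream ends, and their ratio, in each of the 20 libraries by group, with 1 point per library and a line at the group mean. Ratios lie at 0.557 to 0.717 in the 8 control libraries of the Pcf11 comparisons and at 0.705 to 1.06 in the 8 libraries with siPcf11 or Pcf11-IPAKO.

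Taken over all 900 ends, near and far, the sums differed less. In C2C12 total RNA they held 1711 and 1669.9 CPM in controls and 1759.9 and 1851 CPM after siPcf11, and in 4sU RNA 2121 and 2014 against 1994 and 2009 CPM. In NIH3T3 they held 2320.3 and 2320.9 against 2570.4 and 2551 CPM, and in 4T1 1438 and 1743 against 1899 and 2129 CPM. The groups did not overlap in any of the 4, but in 4sU RNA the siPcf11 libraries were the lower ones. As a share of the reads at all minor sites the ends stood higher in each: 2.88 and 2.78% against 3.50 and 3.54% in total RNA, 3.14 and 2.87% against 3.61 and 3.57% in 4sU RNA, 2.61 and 2.49% against 2.97 and 2.77% in NIH3T3, and 2.57 and 2.85% against 3.10 and 3.11% in 4T1. As a share of the reads of the ends and their strong sites they held 1.71 and 1.70% against 1.89 and 2.03% in total RNA, 2.30 and 2.23% against 2.31% in both siPcf11 libraries of 4sU RNA, and 2.35 and 2.41% against 2.79 and 3.03% in NIH3T3. The 4T1 shares of 1.24 and 1.59% against 1.56 and 1.92% overlapped.

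Near ends in NIH3T3 cells summed to 830.1 and 834 CPM in controls and 1062 and 1057 CPM after siPcf11, a log2 ratio of 0.35. Far ends were at 1490.1 and 1487 CPM in controls and 1508 and 1495 CPM after siPcf11, a log2 ratio of 0.01. In 4T1 cells near ends went from 542 and 701 to 896 and 984 CPM (log2 ratio 0.60), while the far ends, at 895 and 1042 against 1004 and 1145.5 CPM, overlapped between groups (exact permutation p = 0.667).

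A few crowded sets carried part of these sums. Without the 103 ends of strong sites with 5 or more, a check chosen after the values had been seen, near ends in C2C12 total RNA were at 597 and 595 CPM in controls and 775 and 777 CPM after siPcf11 (log2 ratio 0.38). In 4sU RNA the log2 ratio of near ends fell to 0.08 and in NIH3T3 it was 0.34. Far ends without these sets were at 888 and 855 CPM against 786 and 839 CPM in total RNA (log2 ratio -0.10), and their share of set reads then overlapped between groups. The far-end ratio was -0.19 in 4sU RNA and 0.03 in NIH3T3. For near ends in 4T1 it was 0.26 with overlapping groups, 446 and 643 against 589 and 713 CPM. The near-to-far ratios still did not overlap in any of the 4 Pcf11 comparisons: 0.673 and 0.697 against 0.986 and 0.926 in total RNA, 0.761 and 0.750 against 0.884 and 0.945 in 4sU RNA, 0.586 and 0.592 against 0.735 and 0.728 in NIH3T3, and 0.604 and 0.734 against 0.769 and 0.758 in 4T1. In differentiated cells the groups then overlapped, at 0.669 and 0.640 against 0.643 in both proliferating libraries.

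The higher near sum rested on a minority of ends that gained much. Of the near ends in C2C12 total RNA 170 had a higher mean after siPcf11 and 152 a lower one. The gains added up to 515 CPM and the losses to -256 CPM. The 10 ends that gained most supplied 173 CPM of the gain, 28 gained over 5 CPM and 10 lost that much. Among far ends 171 were higher and 224 lower, with 365 CPM gained and -508 CPM lost. In 4sU RNA fewer near ends had a higher mean than a lower one, 144 against 185, yet the summed gain of 499.8 CPM exceeded the loss of -352 CPM.

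Relative to library totals, the strong sites in front of near ends moved the other way. Summed over them, levels in C2C12 total RNA were 43790 and 43595 CPM in controls and 38561 and 37985 CPM after siPcf11, a log2 ratio of -0.19. It was -0.19 in 4sU RNA and -0.13 in NIH3T3. In 4T1 the sums were 43330 and 40723 CPM in controls and 40344 and 39799 CPM in Pcf11-IPAKO cells. TMM scaling moved the near-end ratio from 0.48 to 0.66 in total RNA and from 0.23 to 0.44 in 4sU RNA. That shift is about as large as the C2C12 falls of the strong sites, which were not summed under TMM. The share within sets does not depend on the scaling. Near ends thus took 1.50 and 1.48% of the reads of their sets in total RNA controls and 2.30 and 2.39% after siPcf11. In 4sU RNA the share was 2.10 and 1.99% against 2.67 and 2.76%, in NIH3T3 2.06 and 2.12% against 2.79 and 2.98%, and in 4T1 1.24 and 1.69% against 2.17 and 2.41%. In differentiation, which involved no Pcf11 treatment, the share was also higher in differentiated cells, going from 1.35 and 1.32% to 1.67 and 1.62%, with the strong sites at -0.19 and the share higher by 0.30 on the log2 scale, set beside 0.65, 0.41, 0.47 and 0.65 in the 4 Pcf11 comparisons. The groups did not overlap in any of the 5. Without the crowded sets the 4T1 shares overlapped, at 1.03 and 1.58% in controls against 1.48 and 1.80% in Pcf11-IPAKO cells. In the remaining comparisons they still did not overlap.

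Divided by distance, the highest siPcf11 ratios lay at 2500 to 7500 nt behind the strong site. At 5000 to 7500 nt, C2C12 total RNA controls had 428 and 424 CPM and siPcf11 libraries 669 and 688 CPM, a log2 ratio of 0.67. The values were 541 and 495 against 698 and 730 CPM in 4sU RNA, 478 and 461 against 670 and 665 CPM in NIH3T3, and 298 and 363 against 568 and 583 CPM in 4T1. Minor sites at 2500 to 5000 nt, nearer than the rule allows, had log2 ratios of 0.69 in C2C12 total RNA, 0.44 in 4sU RNA and 0.54 in NIH3T3, but -0.09 with overlapping groups in 4T1. Minor sites at 1000 to 2500 nt were higher by less, 0.16, 0.09 and 0.31 in these 3 comparisons without overlap, and were at -0.19 in 4T1. At 7500 to 10000 nt the ratio was 0.03 with overlap in total RNA, -0.23 in 4sU RNA, 0.11 in NIH3T3 without overlap and 0.32 with overlap in 4T1. In 4T1 the last 2 steps, beyond 15000 nt, were higher too, with ratios of 0.26 and 0.49 and no overlap.

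**Figure D2:**
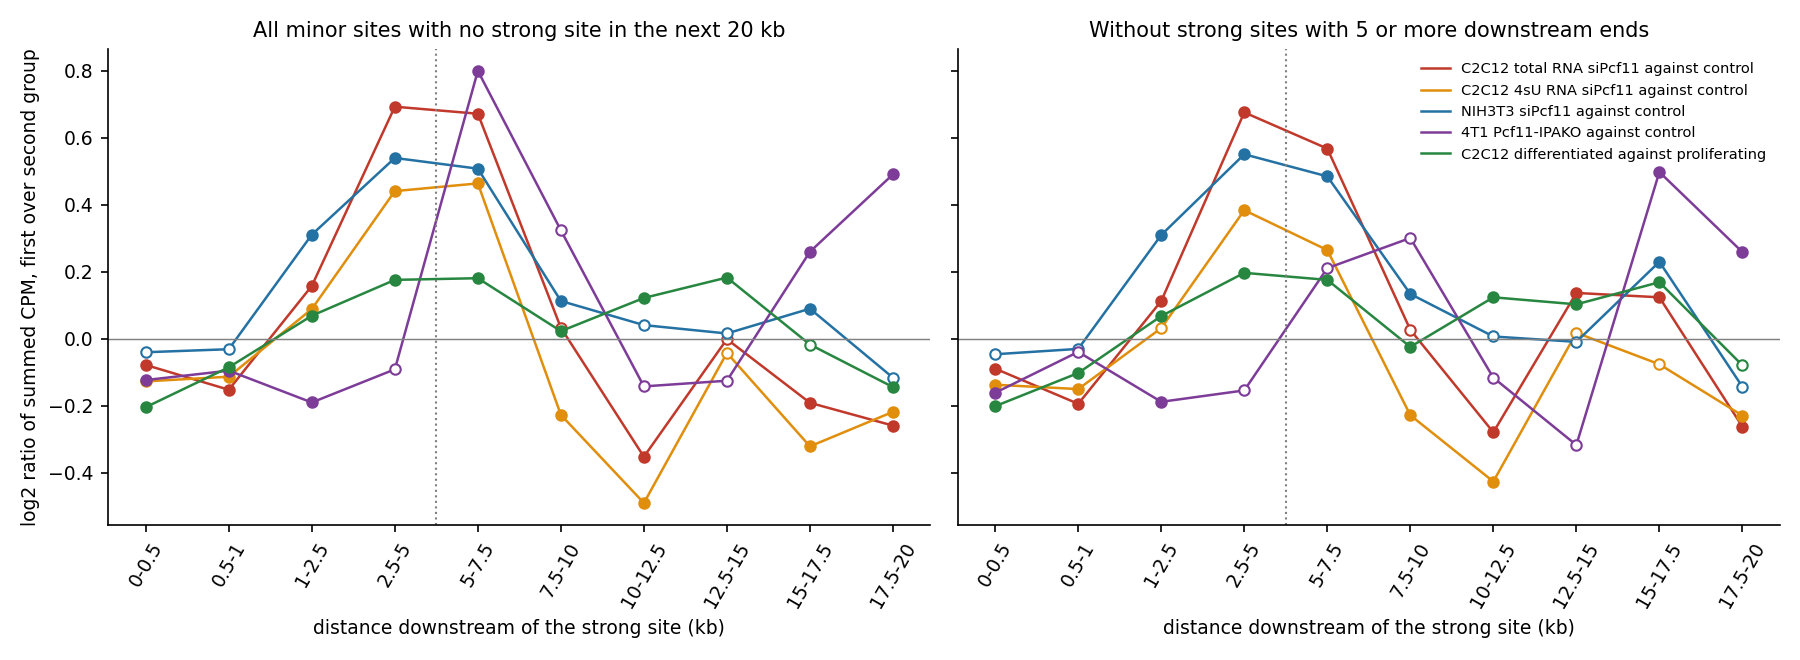
Log2 ratio of summed CPM in bins of distance behind the strong site, for each comparison but that of the RNA kinds, with all minor sites that have no strong site in the next 20000 nt (left) and without those behind strong sites with 5 or more downstream ends (right); open points mark overlapping groups and the dotted line stands at 5000 nt. On the left, C2C12 and NIH3T3 siPcf11 values peak between 2500 and 7500 nt (0.44 to 0.69), and the 4T1 value at 5000 to 7500 nt is 0.80 on the left and 0.21 on the right.

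The 4T1 value at 5000 to 7500 nt, 0.80, depended on the crowded sets and was 0.21 with overlapping groups without them. In the first 1000 nt the ratio, relative to library totals, was below 0 in each of these comparisons. It was -0.08 and -0.15 in total RNA (first 500 nt, then the next), -0.13 and -0.11 in 4sU RNA, -0.12 and -0.10 in 4T1 and -0.20 and -0.09 in differentiation, all without overlap, and -0.04 and -0.03 with overlap in NIH3T3. TMM scaling moved the near-end ratio from 0.48 to 0.66 in total RNA and from 0.23 to 0.44 in 4sU RNA, which is more than these values. The bins were not summed under TMM, so the signs of the smaller C2C12 siPcf11 ratios at any distance hold for library totals only. These distance bins differ in which genes they hold, and no value here separates distance from gene.

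Minor sites placed in the mirror position served as a comparison: 913 sites 5000 to 20000 nt upstream of a strong site with no strong site in the 20000 nt before them. These were lower after siPcf11. Their log2 ratio of summed CPM was -0.62 in C2C12 total RNA, -0.65 in 4sU RNA and -0.17 in NIH3T3, whereas all 900 downstream ends together stood at 0.09, -0.05 and 0.14. The ratio of downstream to upstream reads was 0.889 and 0.904 in total RNA controls and 1.40 and 1.54 after siPcf11. It was 1.06 and 0.959 against 1.55 and 1.50 in 4sU RNA and 1.03 and 0.986 against 1.28 and 1.23 in NIH3T3, without overlap. In 4T1 upstream sites were higher too, by 0.42, and the downstream-to-upstream ratio was 0.796 and 0.861 in controls and 0.817 and 0.763 in Pcf11-IPAKO cells, which overlap. The 3509 minor sites less than 5000 nt behind a strong site were at 0.06 in total RNA and 0.00 in 4sU RNA.

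**Figure D3:**
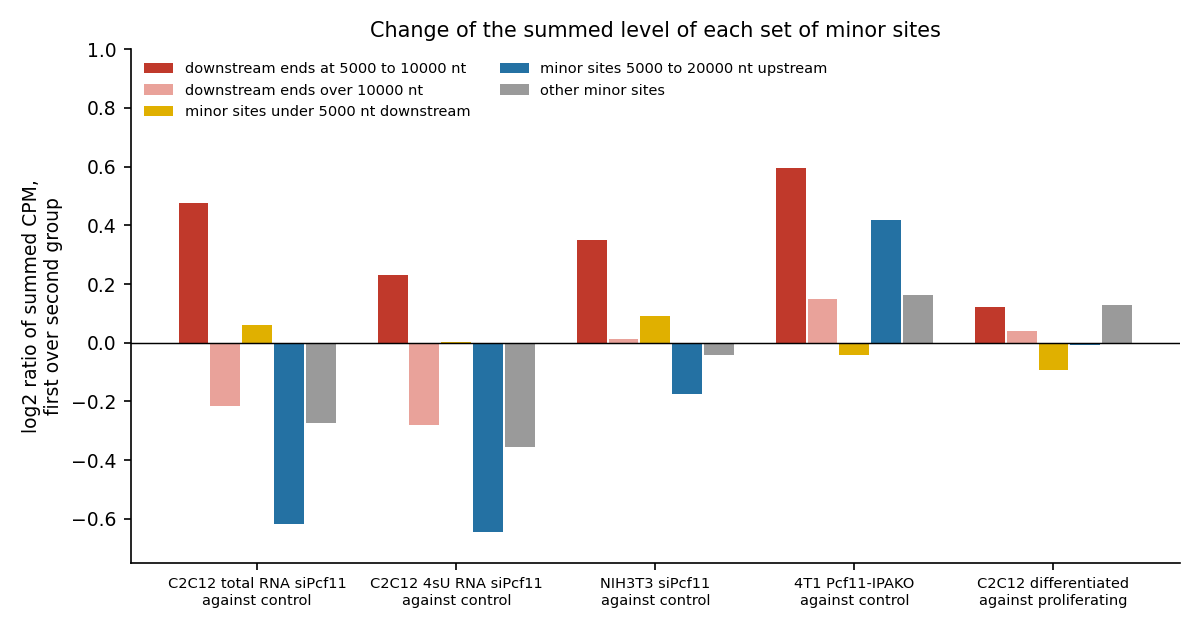
Log2 ratio of summed CPM per comparison for near and far downstream ends, the upstream sites, the minor sites under 5000 nt downstream and all other minor sites, as bars from 0. Upstream sites stand at -0.62 and -0.65 in the C2C12 siPcf11 comparisons and at 0.42 in 4T1.

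Single ends were tested with edgeR's quasi-likelihood test over all positions with at least 10 reads in the libraries of the fit, with TMM scaling and Benjamini-Hochberg adjustment, and an end changed when its adjusted p was under 0.05. An end read in 1 group only enters the test through that group, so the ends tested are not all of the 900. In C2C12 total RNA 609 ends were tested and 167 changed, 98 upward and 69 downward; over all 34647 positions tested 24.9% changed, 11.6% upward and 13.3% downward. The median log2 ratio of the tested ends was 0.08, against -0.11 over all positions. Of the near ends 63 rose and 23 fell (median 0.32, 281 tested). Of the far ends 35 rose and 46 fell (median -0.28, 328 tested). Of the 614 upstream sites tested 26 rose and 98 fell. DESeq2 made fewer calls, 39 ends upward and 18 downward. That is 9.36% of the ends tested, below its 13.7% of all positions, whereas edgeR's 27.4% of ends lay above the share of all positions.

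The changed ends were spread over many loci: the 167 lay behind 149 strong sites and no set supplied more than 3. The ends that rose furthest on the fitted scale had no read in either control. An end at position 107745720 of chromosome 13 (minus strand), 6211 nt behind its strong site, had 9 and 15 reads after siPcf11 and 0 and 0 in controls, at least 8.82-fold higher (adjusted p = 1.78e-06). The floor of such folds is 3 reads over the control group. At position 6504573 of chromosome 11 (plus strand; 7826 nt) there were 8 and 8 reads against 0 and 0, at least 5.88-fold higher (adjusted p = 0.000332). At position 60093465 of chromosome 2 (plus strand; 6202 nt) there were 6 and 10 against 0 and 0, at least 5.88-fold higher (adjusted p = 9.71e-05).

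A further end of this kind, at position 113504859 of chromosome 5 (minus strand; 10484 nt), had 10 and 4 reads against 0 and 0, at least 5.14-fold higher (adjusted p = 0.000772), and lost its call without siPcf11 replicate 1. The siPcf11 total RNA libraries supplied 14 of its 31 pooled reads. It met the lower read limit only with them, so its fold follows in part from the choice. The best supported of the 5 was position 3232930 of chromosome 10 (plus strand; 5450 nt), with 33 and 32 reads after siPcf11 and 1 and 0 in controls. Relative to library size this is a ratio of 71.6, with an exact counting interval of 12.4 to 2872 (adjusted p = 4.45e-15). The strong site passed no test at 4 of these 5 (adjusted p of 0.0590 or more), with log2 ratios of 0.43 at chromosome 10, 0.42 at chromosome 13, 0.12 at chromosome 5 and -0.08 at chromosome 2. At the chromosome 11 end it fell, with a log2 ratio of -0.72.

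The ends that fell furthest mostly fell along with their strong sites. Position 62160041 of chromosome 4 (minus strand; 10161 nt) had 6 and 10 reads in controls and 0 and 0 after siPcf11, at least 4.84-fold lower (adjusted p = 0.00432), while its strong site stood at a log2 ratio of -3.33. Position 101529968 of chromosome 13 (minus strand; 18731 nt) had 7 and 6 against 0 and 0, at least 3.93-fold lower, with its strong site at -2.25. Position 149090570 of chromosome 4 (minus strand; 8402 nt) had 4 and 9 against 0 and 0, at least 3.93-fold lower, with its strong site at -2.51. Position 34021631 of chromosome 5 (plus strand; 6784 nt), with 7 and 5 against 0 and 0, was at least 3.63-fold lower and its strong site stood at -2.77.

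The exception was position 114402758 of chromosome 12 (plus strand; 10668 nt). It had 9 and 4 reads in controls and 0 and 0 after siPcf11, at least 3.93-fold lower (adjusted p = 0.00544), behind a strong site of 1245 CPM in controls whose log2 ratio was -0.00. These 5 calls rest on few reads: all 5 were lost without siPcf11 replicate 2, that on chromosome 12 also without control replicate 1, and that at 149090570 also without control replicate 2.

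**Figure D4:**
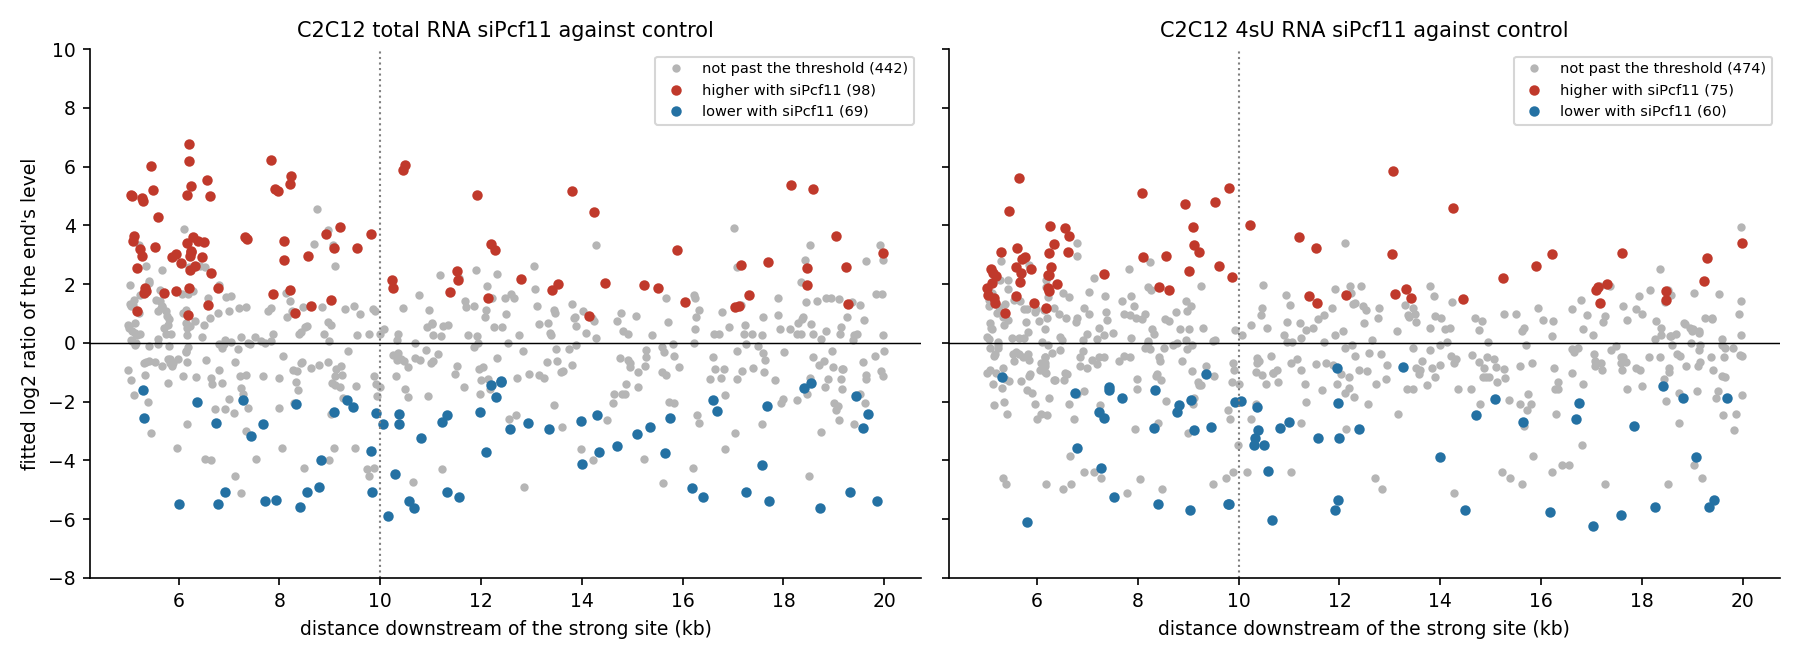
Fitted log2 ratio after siPcf11 of each tested downstream end against its distance from the strong site in C2C12 total RNA (left) and 4sU RNA (right), with ends whose adjusted p is under 0.05 in colour and a dotted line at 10000 nt. In C2C12 total RNA 63 near ends rose and 23 fell, and 35 far ends rose and 46 fell.

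In 4sU RNA 135 of the 609 ends changed, 75 upward and 60 downward, where 23.9% of all positions did, 11.0% upward and 13.0% downward. The median of the ends was -0.27 against -0.19 over all positions. Near ends rose in 49 cases and fell in 24, and far ends in 26 and 36. With libraries scaled by their totals the split turned to 66 upward and 75 downward, and the median of all positions moved to -0.39. In total RNA the same scaling gave 87 and 81, with the median of all positions at -0.28. Of the 135 and 167 ends changed in the 2 RNA kinds 87 changed in both, 53 upward and 34 downward in each and none in opposite directions; these are 64.4% and 52.1% of the ends changed in 4sU and total RNA. Over all positions the overlap was 68.6% and 65.8%, with 0.11% of it in opposite directions, so the overlap of the ends was not above that of all positions. The 2 comparisons share no library, but the labels do not say whether input and 4sU RNA came from separate cultures.

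Among the largest rises in 4sU RNA, position 83017210 of chromosome 6 (plus strand; 9534 nt) had 12 and 13 reads after siPcf11 and 0 and 1 in controls, a ratio of 30.8 with a counting interval of 5.04 to 1265 (adjusted p = 8.93e-06). Position 95480166 of chromosome 3 (plus strand; 13064 nt) had 3 and 9 against 0 and 0, at least 4.93-fold higher, a call lost without siPcf11 replicate 2. The other 3 had 7 to 10 reads in all after siPcf11 and none in controls, and each lost its call without at least 1 control library: they were position 39985622 of chromosome 17, position 34014505 of chromosome 10, both on the plus strand, and position 104638105 of chromosome 12 on the minus strand. The 4sU siPcf11 libraries supplied 25 of the 53 pooled reads at 83017210 and 10 of the 34 at 39985622. They supplied 8 of the 32 at 34014505 and 7 of the 35 at 104638105. Without the reads of that group these ends fall below the lower read limit, so their rises follow in part from the choice.

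Of the largest falls in 4sU RNA, position 164700357 of chromosome 2 (minus strand; 17035 nt) had 11 and 11 reads in controls and 0 and 0 after siPcf11, at least 5.95-fold lower (adjusted p = 0.00128). The chromosome 12 end at 114402758 fell here as well, with 11 and 8 reads in controls and 0 and 0 after siPcf11, at least 5.14-fold lower (adjusted p = 0.0014). Position 5665935 of chromosome 5 (minus strand; 5792 nt) had 9 and 11 against 0 and 0 and lay behind a strong site with a log2 ratio of -2.66. Position 133217340 of chromosome 4 (minus strand; 17583 nt), with 9 and 8 against 0 and 0, and position 125110954 of chromosome 6 (plus strand; 16183 nt), with 8 and 8 against 0 and 0, lay behind strong sites with ratios of -0.01 and -0.06. The last of these calls was lost without either siPcf11 library.

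The use of an end, meaning its level relative to its own strong site, was tested by comparing the end's log2 ratio with that of its set. In C2C12 total RNA the use of 142 of 602 ends changed, 89 upward and 53 downward; 8.87% of the 5165 positions in sets did, 6.25% upward and 2.61% downward. Near ends rose in 57 cases and fell in 9, far ends in 32 and 44. In 4sU RNA 104 ends changed in use, 61 upward and 43 downward, where 5.75% of positions in sets did (4.03% upward, 1.72% downward). There 35 near ends rose and 11 fell, and 26 far ends rose and 32 fell. Minor sites under 5000 nt downstream changed in use at 281 of 2612 in total RNA (10.8%). A strong site gives its set most of the reads and so hardly moves in this test, which bears on the share over all positions.

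The clearest rise in use was position 75711675 of chromosome 15 (minus strand), 14243 nt behind its strong site. It had 62 and 65 reads in total RNA after siPcf11 and 4 and 3 in controls, a log2 ratio of 4.46 ± 0.42 (SE). As a share of end and strong site, it went from 0.324 and 0.231% to 7.35 and 7.50% (use, adjusted p = 5.84e-24). In 4sU RNA it had 88 and 70 reads against 4 and 5, 8.67 and 7.95% against 0.276 and 0.368% (adjusted p = 4.58e-28). It is a far end, unlike most that gained use.

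Position 105790342 of chromosome 3 (plus strand; 19235 nt) had 22 and 17 reads after siPcf11 and 5 and 3 in controls, while its strong site stood at -2.86, so its share went from 0.838 and 0.469% to 23.2 and 21.8% (use, adjusted p = 5.62e-16). In 4sU RNA, position 5824708 of chromosome 19 (minus strand; 17599 nt) had 21 and 16 reads against 2 and 4, with its strong site at -3.07, and its share went from 0.381 and 0.802% to 37.5 and 24.2% (adjusted p = 2.65e-17). At these 2 ends the strong site fell about as far on the log2 scale as the end rose, by 2.86 against a rise of 2.58 and by 3.07 against 3.07. The falls in use with the lowest adjusted p in total RNA were at position 17490153 of chromosome 7 and position 25048486 of chromosome 2, described next, with log2 use ratios of -4.99 and -2.66. The end at 114402758 of chromosome 12 fell further, by 5.60, on fewer reads (use, adjusted p = 0.00999). In 4sU RNA the lowest adjusted p of a fall in use (2.51e-11; log2 use ratio -3.27) was at position 9062079 of chromosome 19 (plus strand; 9124 nt), with 4 and 7 reads against 65 and 58 in controls, where the strong site rose (log2 ratio 1.46) and the share went from 61.3 and 58.6% to 5.41 and 7.29%. Ends already named fell further in use there with higher adjusted p, with log2 use ratios of -5.81 at 114402758, -5.70 at 133217340, -5.64 at 125110954, -5.35 at 164700357 and -3.85 at 17490153.

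The 5 ends with most pooled reads, 492 to 496 each, behaved in unlike ways. Position 108811990 of chromosome 6 (plus strand), 6232 nt behind its strong site, held 7.30 and 5.87 CPM in C2C12 total RNA controls and 34.6 and 31.2 CPM after siPcf11. In 4sU RNA it held 8.36 and 4.47 CPM in controls and 28.8 and 27.0 CPM after siPcf11. All treated libraries were above all controls, with log2 ratios of 2.49 ± 0.32 (SE; adjusted p = 1.48e-13) and 2.32 ± 0.32 (adjusted p = 2.3e-11). In NIH3T3 cells it was at 3.90 and 4.60 CPM in controls and 6.24 and 8.76 CPM after siPcf11 (adjusted p = 0.564), and in 4T1 at 2.83 CPM or less.

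Position 17490153 of chromosome 7 (minus strand; 10575 nt) did the reverse. It held 30.6 and 20.5 CPM in total RNA controls and 1.10 and 0 CPM after siPcf11, and 34.7 and 16.3 against 1.49 and 0.519 CPM in 4sU RNA. In total RNA these are 67 and 49 reads against 2 and 0 (adjusted p = 2.13e-18), and the use of the end fell as well (adjusted p = 2.24e-13), while its strong site was at a log2 ratio of -0.17 with adjusted p = 0.453. It was also lower in differentiated cells, at 5.40 and 7.33 CPM against 32.4 and 22.0 CPM when proliferating (adjusted p = 8.89e-13), and had no read in any 4T1 library.

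Position 25048486 of chromosome 2 (minus strand; 6750 nt), a near end, also fell. It held 38.8 and 23.0 CPM in total RNA controls and 1.65 and 5.99 CPM after siPcf11 (log2 ratio -2.73 ± 0.37, SE; adjusted p = 5.04e-12; use, adjusted p = 2.48e-10). In 4sU RNA the values were 18.8 and 17.5 against 6.95 and 2.60 CPM (adjusted p = 0.000135), and in differentiation 17.8 and 13.6 CPM fell to 6.49 and 4.02 CPM (adjusted p = 1.12e-05).

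Position 56690837 of chromosome 17 (minus strand; 11530 nt) was mostly an NIH3T3 end, at 22.1 and 24.2 CPM in controls and 62.4 and 17.0 CPM after siPcf11, which overlap. It rose in C2C12 total RNA from 0.912 and 1.68 CPM to 6.05 and 6.84 CPM (log2 ratio 2.44 ± 0.69, SE; adjusted p = 0.00313), and in 4sU RNA from 0 and 0.813 to 4.47 and 3.12 CPM (adjusted p = 0.00372). Position 53062977 of chromosome 7 (minus strand; 17623 nt) had reads in every library, 1.71 to 22.4 CPM, and passed no test of level in any comparison, with adjusted p of 0.208 or more.

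**Figure D5:**
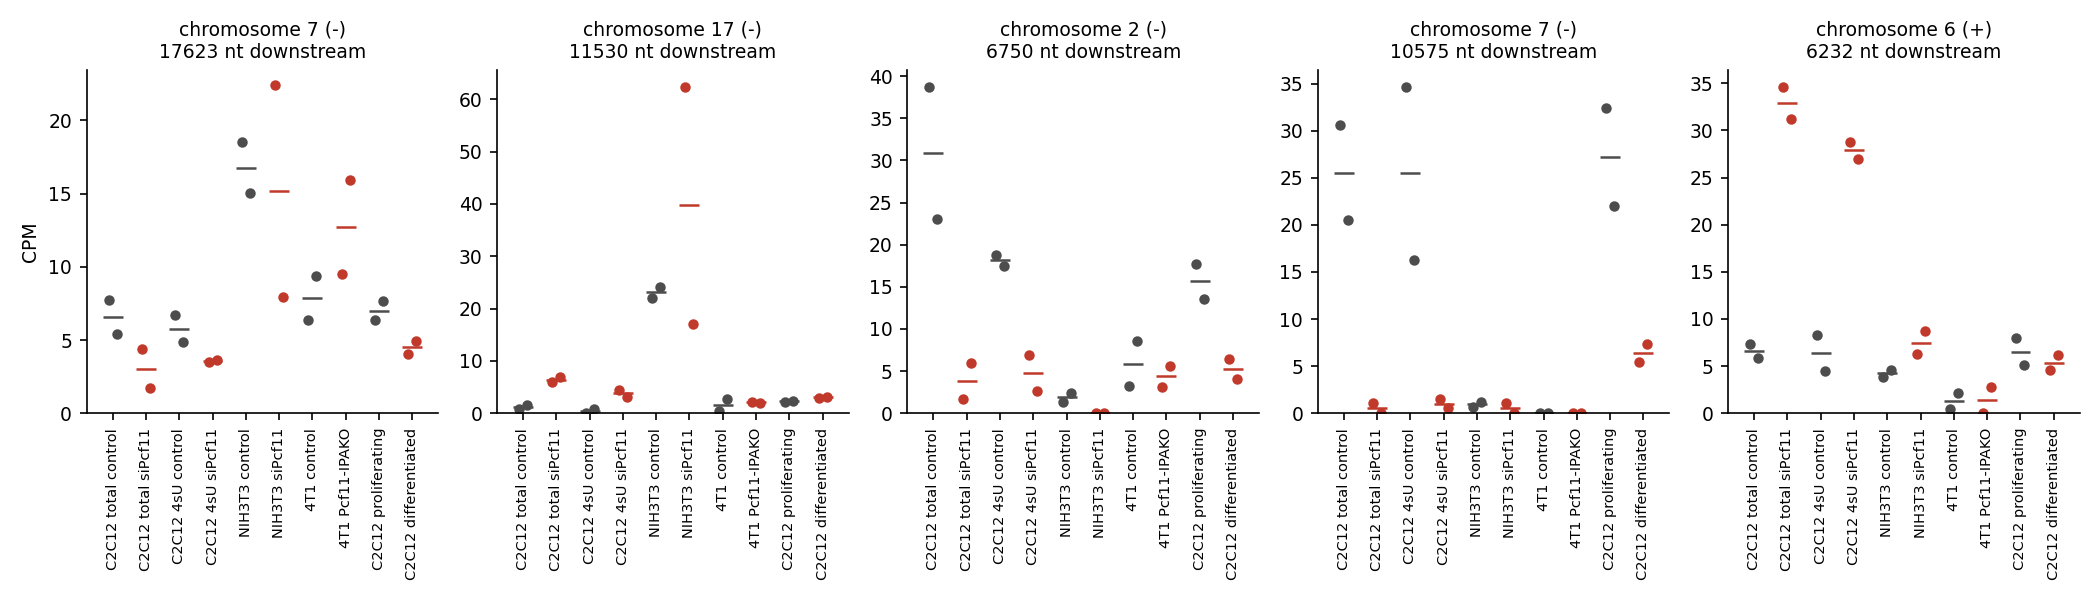
CPM of the 5 downstream ends with most pooled reads in each of the 20 libraries, by group. The chromosome 6 end is at 27.0 to 34.6 CPM in the 4 siPcf11 C2C12 libraries and at 8.36 CPM or less in their controls, and the chromosome 7 end at 17490153 is at 1.49 CPM or less in the siPcf11 libraries.

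In NIH3T3 cells no single end changed in level: 0 of 486 passed edgeR's threshold, where 0.00% of all positions did. At an unadjusted p under 0.05 there were 82 ends, and DESeq2 called 5, where it called 1.01% of all positions. The count was sensitive to the replicates, 133 of 439 (30.3%) without siPcf11 replicate 1 and 41 of 425 (9.65%) without siPcf11 replicate 2, beside 29.3% and 8.57% of all positions in the same fits. The median log2 ratio of the tested ends was 0.10 against 0.00 over all positions, 0.36 for near ends and -0.04 for far ends. In use, 3 of 471 ends rose and none fell, where 0.191% of positions in sets changed, all upward; 77 ends had an unadjusted p under 0.05. Position 3039783 of chromosome 11 (plus strand; 7358 nt) had 140 and 162 reads after siPcf11 and 10 and 20 in controls, 17.3 and 12.7% of end and strong site against 1.46 and 2.57% (use, adjusted p = 0.0133). Position 20937666 of chromosome 9 (minus strand; 6209 nt) had 56 and 92 reads against 7 and 10, 7.13 and 7.55% against 0.646 and 0.881% (adjusted p = 0.0133). Both are near ends and their treated libraries were well above both controls, but their calls of use did not hold when any 1 control library was left out.

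In 4T1 cells 20 of 394 ends rose and none fell, where 1.24% of all positions changed, 1.07% upward and 0.170% downward. Same-numbered 4T1 libraries deviated together (r of 0.36). With equal replicate numbers paired in the fit, 38 ends rose and 2 fell, where 5.12% of all positions changed. Of the 20 called without pairing, 12 lay in the chromosome 11 set behind position 87256963, and the 20 came from 7 strong sites in all. That set of 15 ends summed to 16.4 and 19.6 CPM in controls and 311 and 261 CPM in Pcf11-IPAKO cells. Its strong site rose with it, from 56.6 and 42.5 CPM to 491 and 320 CPM (log2 ratio 3.07, adjusted p = 0.000388), and had no read in any C2C12 or NIH3T3 library. Most of the 2454 pooled reads of that strong site came from the Pcf11-IPAKO libraries. It counts as strong, and the ends behind it as downstream ends, through that group. The calls in this set thus follow in part from the choice. Position 87262430, 5467 nt behind that strong site, had 58 and 101 reads against 1 and 4 (log2 ratio 5.05 ± 0.60, SE; adjusted p = 0.000402), and its use did not pass (adjusted p = 0.839). Positions 87276030, with 38 and 29 reads against 1 and 0, and 87276212, with 31 and 31 against 0 and 1, lay 19067 and 19249 nt behind it and lost their calls without control replicate 2. Position 87262829 had 12 and 25 against 0 and 1 and lost its call without control replicate 2 or Pcf11-IPAKO replicate 2. Over the 15 ends of the set the fitted log2 ratios ran from 3.09 to 6.01, all upward.

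Outside that set, position 32260222 of chromosome 8 (minus strand; 9713 nt) had 28 and 50 reads in Pcf11-IPAKO cells and 0 and 4 in controls (level, adjusted p = 0.00789, lost without control replicate 2). Its share was 24.3 and 26.0% against 0 and 1.53% (use, adjusted p = 0.00975). Position 87504926 of chromosome 8 (plus strand; 6710 nt) had 40 and 101 reads against 7 and 10, 1.69 and 3.21% against 0.227 and 0.299% of its set pair (use, adjusted p = 0.0224). They are 2 of the 3 ends of 387 whose use rose, where 0.285% of positions in sets changed, 0.257% upward and 0.0285% downward. These calls of use did not hold without control replicate 1, nor when any 1 Pcf11-IPAKO library was left out. Pcf11-IPAKO libraries supplied 78 of the 87 pooled reads at 32260222 and 141 of the 158 at 87504926. Both ends met the lower read limit only through that group, so their calls also follow in part from the choice. The Pcf11-IPAKO libraries had a larger share of reads at positions of few reads, as given above, and the part of this in the 4T1 values was not tested.

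The crowded chromosome 17 set behaved unlike the rest in C2C12 RNA. The sites were not compared with an annotation, so whether this set lies in ribosomal RNA or another repeat was not tested. Its 11 ends summed to 43.3 and 39.8 CPM in total RNA controls and 76.4 and 86.0 CPM after siPcf11, and to 35.1 and 22.8 against 93.9 and 98.2 CPM in 4sU RNA. Of its 10 tested ends 3 rose in total RNA and 8 in 4sU RNA, and none fell. They are among the 63 and 49 near ends that rose in these RNA kinds. Its strong site held 94.4 and 107 CPM in total RNA controls and 401 and 533 CPM in 4sU controls. In NIH3T3 and 4T1 libraries the strong site had no read while the ends held 13.3 to 68.9 CPM. The set of 9 on chromosome 3 was at 6.84 and 8.80 CPM in total RNA controls and 11.5 and 15.0 CPM after siPcf11, while its strong site went from 104 and 102 CPM to 38.5 and 50.5 CPM.

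In differentiation 32.6% of the tested ends changed in level, below the share of all positions, and the sum over all ends was nearly level relative to library totals. All 900 ends held 1656 and 1616 CPM in proliferating and 1718 and 1717 CPM in differentiated cells. Of 543 ends tested 177 changed, 101 upward and 76 downward, where 39.5% of all positions did, 21.5% upward and 18.1% downward. The median log2 ratio was 0.19 against 0.02 over all positions. Near ends rose in 44 cases and fell in 25, far ends in 57 and 51. In use 128 of 540 changed, 86 upward and 42 downward, where 7.17% of positions in sets did, 4.47% upward and 2.70% downward.

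The largest rise in differentiation was position 51740786 of chromosome 7 (plus strand; 13764 nt), with 72 and 84 reads in differentiated and 0 and 0 in proliferating cells, at least 46.3-fold higher (adjusted p = 9.11e-35). Its share of end and strong site was 19.3 and 20.3% against 0% in both. Positions 26896378 and 26894068 of chromosome 2 (plus strand; 19768 and 17458 nt behind the same strong site) had 30 and 60, and 35 and 41 reads, against none, at least 26.7-fold and 22.6-fold higher, while their strong site was at a log2 ratio of -0.02. Position 4470679 of chromosome 16 (minus strand; 6300 nt) had 34 and 41 reads against 0 and 0, at least 22.3-fold higher, but with its strong site, which rose by a log2 ratio of 6.35. Position 134696129 of chromosome 5 (minus strand; 17575 nt) had 18 and 19 against 0 and 0, at least 11.0-fold higher, behind a strong site at 0.11. Differentiated cells supplied 156 of the 157 pooled reads at 51740786 and 37 of the 38 at 134696129. They also supplied all 90, 76 and 75 pooled reads at 26896378, 26894068 and 4470679. These ends met the lower read limit only through that group, so their folds follow in part from the choice.

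The ends that fell furthest in differentiation had 11 to 17 reads in proliferating cells and none after. They included positions 69829842 and 109317931 of chromosome 11 and 20081160 of chromosome 10, all on the plus strand, and 149090570 of chromosome 4 and 101529734 of chromosome 13 on the minus strand. The first and the chromosome 4 end, each with 8 and 9 reads against 0 and 0, were at least 6.36-fold lower (adjusted p = 0.000192). The calls at 20081160 and 109317931 were lost without differentiated replicate 1. The rises in use with the lowest adjusted p were at position 151659448 of chromosome 4 (plus strand; 13491 nt), from 0.236 and 0.188% to 8.27 and 9.84% as its strong site fell (log2 ratio -1.90; use 5.39), and at the chromosome 6 end at 125110954, from 2.39 and 2.29% to 31.6 and 24.9% (use 3.27). The 2 chromosome 2 ends and those at 51740786 and 134696129 rose further in use, by 7.01 to 8.10 on the log2 scale, from no read. The falls in use with the lowest adjusted p were at position 46394265 of chromosome 17 (plus strand; 5299 nt), from 16.8 and 15.6% to 1.52 and 1.68%, and at position 70037629 of chromosome 11 (minus strand; 13997 nt), from 21.1 and 13.5% to 2.39 and 0.347%, with log2 use ratios of -3.30 and -3.76. The ends at 149090570, 109317931, 69829842 and 20081160, with no read in differentiated cells, fell further, with -6.47, -6.30, -5.49 and -5.03. Differentiated cells supplied 79 of the 101 pooled reads at 151659448. Proliferating cells supplied 17 of the 40 at 69829842 and 12 of the 36 at 101529734. Positions 151659448, 69829842 and 101529734 thus met the lower read limit only with the group in which they were higher. Their changes follow in part from the choice.

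Of the ends changed by siPcf11 in total RNA and those changed in differentiation, which share no library, 44 were in both lists, 26.3% and 24.9% of each, below the 51.8% and 34.9% over all positions. Of these 13 rose in both, 17 fell in both and 14 moved in opposite directions. For 4sU RNA and differentiation the overlap was 38 ends, 28.1% and 21.5%, with 9, 17 and 12, against 52.6% and 34.0% over all positions. Of the positions in both lists 32.4% and 32.9% moved in opposite directions, close to the 31.8% and 31.6% of the ends.

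Newly made RNA held more reads at downstream ends per library total than total RNA did, and so did other minor sites. In untreated C2C12 cells the 900 ends summed to 2121 and 2014 CPM in 4sU RNA and 1711 and 1669.9 CPM in total RNA, a log2 ratio of 0.29 with no overlap (exact permutation p = 0.333). The remaining minor sites, away from the classes described above, were at 55238 and 57593 against 47876 and 48619.8 CPM, a log2 ratio of 0.23. As a share of minor-site reads the ends overlapped, at 3.14 and 2.87% against 2.88 and 2.78%. Of 609 ends 27 were higher and 2 lower at an adjusted p under 0.05, where 8.36% of all positions changed, 4.59% upward and 3.78% downward. The median was 0.28 against 0.06 over all positions. In use 13 rose and 3 fell, where 0.949% of positions in sets changed, 0.639% upward and 0.310% downward. The clearest were position 98554799 of chromosome 15 (minus strand; 13258 nt), with 47 and 65 reads in 4sU and 12 and 14 in total RNA (use, adjusted p = 6.12e-09), and position 81678702 of chromosome 15 (minus strand; 17045 nt), with 37 and 52 against 7 and 16 (adjusted p = 7.76e-05).

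The largest level differences between the RNA kinds rested on few reads. The 5 highest had 10 to 15 reads in 4sU RNA and none in total RNA, led by position 60093465 of chromosome 2 with 4 and 11 reads, at least 4.72-fold higher (adjusted p = 0.00262), and all 5 lost their calls without either total RNA library or without at least 1 of the 4sU libraries. The 2 lower ends were position 39985752 of chromosome 17 (plus strand; 5767 nt), with 7 and 2 reads against 13 and 16, and position 25048486 of chromosome 2, with 45 and 43 against 85 and 55. Use was lower at that chromosome 17 end (adjusted p = 0.00038) and at position 89210522 of chromosome 5 (plus strand; 19439 nt), with 6 and 6 reads against 7 and 20 (adjusted p = 0.00108).

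Whether the siPcf11 response differed between 4sU and total RNA was tested as an interaction in the joint fit. At 0 of 609 ends did it pass, where 0.0808% of positions did; 38 ends had an unadjusted p under 0.05, and DESeq2 also gave 0 with 9 at an unadjusted p under 0.05. The response was most in favour of 4sU RNA at positions 39985752 of chromosome 17, 16712846 of chromosome 7 and 89803509 of chromosome 3, with log2 differences of 1.99 ± 0.69, 2.06 ± 0.76 and 2.80 ± 1.14 (SE; adjusted p of 0.414 to 0.592). It was most in favour of total RNA at positions 78220493 of chromosome 14, 60093465 of chromosome 2 and 81678702 of chromosome 15, with -3.64 ± 1.00, -5.37 ± 1.69 and -1.60 ± 0.54 (adjusted p of 0.122 to 0.354). At the chromosome 2 end the total RNA controls had no read while the 4sU controls had 4 and 11.

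Across the 20 libraries the Spearman correlation of an end with its strong site had a median of 0.07 over the 900 pairs, 0.10 for near and 0.04 for far ends, against 0.31 for the 3509 minor sites under 5000 nt downstream. These are descriptions over libraries that share cell lines and depth, and low counts weaken them. The end and the strong site had their highest mean level in the same cell line at 350 ends (38.9%), against 47.7% of the closer sites. At 73 ends (8.11%) a cell line gave 10 or more reads where the strong site was under 1 CPM, against 11.9% of the closer sites and 9.53% of the upstream sites. The log2 ratios of end and strong site after siPcf11 in total RNA had a correlation of 0.01 over 583 pairs, 0.17 for near and -0.09 for far ends, set beside 0.43 for the closer sites.

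The 417 single ends summed to 682 and 709 CPM in C2C12 total RNA controls and 909 and 916 CPM after siPcf11, a log2 ratio of 0.39, while the 483 ends that shared a strong site with others went from 1030 and 961 CPM to 851 and 935 CPM, at -0.16. In 4sU RNA these ratios were 0.12 and -0.19, and in NIH3T3 0.40 and -0.10. In 4T1 the order was the other way, with 0.05 and overlapping groups for single ends and 0.50 for shared ones. These ratios are relative to library totals. TMM scaling moved the sum of all ends from 0.09 to 0.27 in total RNA and from -0.05 to 0.16 in 4sU RNA. Scaling shifts both kinds of end alike, so their order does not depend on it but the sign of the shared ends can. Near ends with no other listed position in the 1000 nt before them went from 118 and 129 CPM to 293 and 279 CPM in C2C12 total RNA, a log2 ratio of 1.21, and stood at 0.60 in 4sU RNA, 0.53 in NIH3T3 and 0.11 with overlapping groups in 4T1. The far ends of this kind went the other way from all far ends in total RNA, from 197 and 186 CPM to 199.6 and 227 CPM (0.16), and were higher in NIH3T3 as well (0.25), both without overlap. In 4sU RNA they stood at 0.01 and in 4T1 at -0.10, with overlapping groups. Their near-to-far ratio was above controls in all 4 Pcf11 comparisons, with log2 differences of 1.05, 0.59, 0.28 and 0.19, and below in differentiation, at -0.21. These subsets were chosen after earlier values had been seen.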

How the data were processed

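The deposited files list, per library, genomic positions of 3′ ends with a read count at each; per the submitters' processing notes, cutadapt, Bowtie2 and STAR and the mm9 assembly were used, with no versions or settings given in the sources used here. The authors' counts were used as deposited, without the mitochondrial positions. The 2 RNA-seq libraries of the series were not used. CPM was computed over nuclear reads. Read counts cover counting error only where intervals (95%, exact) or floors of 3 reads are given.

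Level was tested with edgeR 4.0.16 (limma 3.58.1, R 4.3.3): quasi-likelihood test, TMM scaling, positions with at least 10 reads over the fit, Benjamini-Hochberg adjustment over all of them, and a threshold of 0.05. A joint fit took the 8 C2C12 total and 4sU libraries, and each remaining comparison its own 4. Use was tested with edgeR's diffSpliceDGE over sets of a strong site and the minor sites behind it. Sums were compared with the two-sided exact permutation test over libraries. Python 3.11.15 with pandas 2.3.3, numpy 2.4.6, scipy 1.17.1 and matplotlib 3.10.9 did the rest. DESeq2 1.42.0, other scalings and filters, other site limits and leaving out each library were alternatives. On simulated counts for C2C12 total RNA (32450 sites), 18.8% of ends changed 4-fold were found and 0 of 32256 unchanged sites were called. Only a small part of the simulated sites was changed, whereas 24.9% of all positions passed in the data. The adjusted threshold is therefore stricter in the simulation, and the share found there does not give the share missed in the data.

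The ends named are the 5 with most pooled reads, the 3 strong sites with most ends, per comparison the 5 highest and 5 lowest fitted ratios among changed ends whose groups did not overlap, the 2 clearest in each direction of use, the 3 in each direction of the interaction, and those at each limit of the rule. The sites, lists and tests were chosen with earlier results of these data known. The labels do not say that equal replicate numbers share a culture or a day, and with 2 libraries a group the numbers were not used to pair them.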

Additional observations from a re-analysis of the deposited data

Results flagged for a closer look

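These are results whose direction differed between comparisons, with every library of 1 treated group above its controls and every library of the other below. The differences themselves were not tested, and no group has the 4 libraries needed for a check of single outlying libraries. The summed CPM of all downstream ends had a log2 ratio of 0.0949 after siPcf11 in C2C12 total RNA and -0.047 in 4sU RNA, and of 0.1421 in NIH3T3. Far ends alone had -0.2158 in C2C12 total RNA and -0.2794 in 4sU RNA, and 0.0122 in NIH3T3. The far-end values moved to -0.04, -0.07 and -0.01 with TMM scaling, and with it the sum of all ends was above controls in each, at 0.27, 0.16 and 0.12.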

How the results depend on the processing

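Counts of changed ends depended on the tool and filter, and in 4T1 also on scaling, where library totals gave 27 ends, DESeq2 16, a stricter filter 23 and no filter 25 against 20. Of the 4T1 ends tested these are 6.85, 4.06, 12.2, 3.73 and 5.08%, beside 1.77, 0.97, 2.63, 0.16 and 1.24% of all positions. For level, DESeq2 called 57 ends in C2C12 total RNA, 48 in 4sU RNA, 3 between the RNA kinds, 5 in NIH3T3 and 54 in differentiation. In that order these are 9.36, 7.88, 0.49, 1.03 and 9.94% of ends, beside 13.7, 13.5, 4.26, 1.01 and 21.7% of all positions. Without a low-count filter the counts were 80, 69, 11, 20 and 106. These are 10.7, 9.24, 1.47, 2.95 and 14.5% of ends, beside 2.48, 2.46, 0.77, 0.72 and 5.84% of all positions. For use, a stricter filter (filterByExpr) gave 7 in NIH3T3 and 7 in 4T1, 2.83 and 3.8% of ends beside 0.94 and 1.01% of positions in sets. The replicate block, which pairs equal replicate numbers, gave 8 and 7 ends in use in NIH3T3 and 4T1, 1.7 and 1.81% beside 0.57% of positions in sets in both. For level it gave 40 in 4T1, 10.15% of ends beside 5.12% of all positions. Elsewhere it gave 149, 132, 29, 0 and 167 in level. These are 24.5, 21.7, 4.76, 0 and 30.8% of ends, beside 24.1, 23.3, 9.08, 0 and 38.3% of all positions. Same-numbered libraries deviated together with r of 0.36 in 4T1 and 0.04 to 0.06 in the other comparisons.

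Leaving out each library in turn gave, for level, 100 to 117 ends in total RNA (100.0 without siPcf11 replicate 2), 82 to 93 in 4sU RNA, 9 to 13 between the RNA kinds, 0 to 133 in NIH3T3, 3 to 24 in 4T1 (3 without control replicate 2) and 74 to 137 in differentiation (74 without differentiated replicate 1). For use the ranges were 78 to 93, 55 to 66, 3 to 7, 0 to 95, 0 to 3 and 77 to 85. The lone library left in a group was assumed to vary like the others.

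Changing the limits of the rule gave 354 to 1061 ends. The log2 ratio of summed CPM turned to -0.0467 in total RNA and -0.0309 in differentiation with strong sites of 4000 or more reads, to -0.2158 in total RNA beyond 10000 nt, and to 0.2302 in 4sU RNA within 10000 nt. The share of set reads turned to -0.1742 beyond 10000 nt in total RNA. In 4sU RNA it turned to -0.0164 and -0.0621 with strong sites of 1000 and 4000 reads, to -0.2688 beyond 10000 nt and to -0.0564 with libraries scaled before pooling. The share of minor-site reads turned to -0.0323 in 4T1 with strong sites of 4000 reads. In differentiation it turned to 0.0585 with 1000 reads, to 0.0254 within 10000 nt and to 0.0037 with sites merged within 24 nt, and ran from -0.0566 to 0.0054 over single libraries left out (0.0054 without proliferating replicate 1). The cause was not tested.

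Depth limits single ends: most named calls with no read in 1 group rest on 7 to 20 reads. Of the calls at single named ends, 108 held and 49 were lost with a library left out, and 209 held and 21 were lost under the other settings, with none reversed.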
